A study of Mus musculus with 6 samples.

Results

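The genes described here carry fat and cholesterol across the wall of a capillary: Gpihbp1, Lpl, Fabp4, Fabp5, Scarb1, Cd36, Abca1, Pparg and Thrsp. They were taken by name, 9 of 23998 gene symbols in the count tables, and all 9 were found. Single cells of mouse kidney were sorted onto 6 plates through a mesenchyme gate or an endothelia gate and read by Smart-seq2, which covers whole transcripts and adds no molecular identifiers. A plate held 3 mice: 1 healthy, the others 2 and 10 days into obstruction of a single ureter (UUO), in which the tied-off kidney is injured and scars. The layout gives every well a number from 1 to 4, shared by 1 or 2 plates and read here as the mouse within a condition. Strain, sex, age and the antibodies or reporters behind the gates are not given in the sources used here, and the labels name no operation on the healthy mice.

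Reads were added over the wells of a gate, condition and number, giving 4 sums per gate and condition, and levels are given as CPM (the gene's reads scaled to the total of gene reads in its sum, in the usual counts-per-million unit). Of 2292 sorted wells, 2235 with at least 1000 genes and 20000 reads were kept. A sum held 61 to 127 wells and 19382742 to 56326210 reads. The endothelia gate kept 380 healthy, 368 day 2 and 381 day 10 wells. Its 8 endothelial markers summed to 16093 to 25038 CPM per sum, against 144 to 681 CPM in the mesenchyme gate. Adipocyte markers, which matter because fat cells make Lpl, Fabp4, Cd36 and Pparg, summed to at most 4.23 CPM over 8 genes in any endothelia sum, and Adipoq was at 0 in all of them. Each condition fills the same plate columns on every plate, so condition and plate column cannot be told apart.

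Triglyceride in the blood travels in lipoproteins too large to enter a tissue. Lipoprotein lipase, the product of Lpl, splits it at the inner face of capillaries, where GPIHBP1, a protein of capillary endothelium, brings the enzyme from the tissue side and holds it. The fatty acids released enter cells in part through CD36 and are carried inside them by the binding proteins FABP4 and FABP5, under control of the nuclear receptor PPARγ. SR-B1, encoded by Scarb1, takes up cholesterol from high-density lipoprotein, ABCA1 sends cholesterol out to lipid-poor apolipoprotein A-I, and THRSP (Spot 14) is a nuclear protein tied to fatty acid synthesis.

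Sequences are shown for the genes whose levels moved in opposite directions and for the pair of similar binding proteins, whose reads have to be told apart. RefSeq promoters on GRCm38.p6 matched 4 of the 9 genes, Abca1, Cd36, Pparg and Thrsp. The 250 bases before the start of Abca1 (chr4:53159896-53160145, minus strand), the member called at day 2, and of Thrsp (chr7:97417551-97417800, minus strand), which was lower at day 10, read 5′ to 3′ as follows, with motif matches in capitals:
Abca1: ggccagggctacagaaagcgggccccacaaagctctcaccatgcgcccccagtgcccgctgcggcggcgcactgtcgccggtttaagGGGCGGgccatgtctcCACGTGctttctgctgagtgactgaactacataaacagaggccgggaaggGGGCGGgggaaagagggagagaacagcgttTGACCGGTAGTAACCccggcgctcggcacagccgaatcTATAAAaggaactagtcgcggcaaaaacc
Thrsp: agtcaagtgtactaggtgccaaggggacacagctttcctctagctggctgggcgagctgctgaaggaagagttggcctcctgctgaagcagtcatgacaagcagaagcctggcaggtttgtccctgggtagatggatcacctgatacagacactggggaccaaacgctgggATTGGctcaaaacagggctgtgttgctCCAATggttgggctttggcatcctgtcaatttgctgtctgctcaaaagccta
The capitals in Abca1 mark, from left to right, a GC box (GGGCGG), an E-box (CACGTG, from 147 to 142 bases before the start), another GC box, a match on the minus strand to the LXR element, GGTTA and GGTCA with 5 unspecified bases between them (67 to 53 bases before the start) and a TATA box (TATAAA, 29 to 24 bases before it). The sterol-sensing receptor LXR is known to bind a direct repeat in the Abca1 promoter. The pattern searched was written from that repeat, so its match in Abca1 was fixed in advance and is no finding. Its 5 unspecified bases belong to the pattern as written and are not given as the spacer of the bound repeat. On either strand the pattern was found in 15 of 32851 promoter windows of the same length (0.0457%). CACGTG was found in 6.02%, GGGCGG in 32.7% and TATAAA in 12.4%. Thrsp holds 2 CCAAT matches, 1 on each strand (79 to 75 and 52 to 48 bases before the start), a motif found in 33.8% of windows. AGGTCA, a nuclear receptor half-site found in 14% of windows, was also searched and is in neither window. The gene model used for Thrsp's position below starts inside this window, upstream of the RefSeq start. No motif overlaps another in these windows, and a match is a description of the letters only.

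Fabp4 and Fabp5 lie on mouse chromosome 3 and encode proteins of one family. The first 90 coding bases of each, from GENCODE vM21 transcripts, are given with capitals at bases that have no identical partner in an alignment of the coding regions:
Fabp4: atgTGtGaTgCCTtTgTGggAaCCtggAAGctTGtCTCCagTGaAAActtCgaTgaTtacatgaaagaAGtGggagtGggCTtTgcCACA
Fabp5: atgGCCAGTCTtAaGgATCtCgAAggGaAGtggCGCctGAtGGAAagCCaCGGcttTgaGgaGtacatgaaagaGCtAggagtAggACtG
Over 399 aligned coding bases 60.9% were identical, and no stretch of 43 bases was found in both genes' transcripts, so a read of that length would not fit both. Fabp5 does share such stretches with processed pseudogenes, up to 5.9% of its windows with Gm6166, and its counts are less certain for that reason.

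In healthy kidneys 7 of the 9 genes were higher in the endothelia gate than in the mesenchyme gate. The background is broad, since 23.9% of all genes tested were called between the gates and 12.7% were called as higher in endothelia. Gpihbp1 (chromosome 15, 75596628 to 75599481, plus strand) stood at 236, 174, 472 and 246 CPM in healthy endothelia sums 1 to 4 and at 0 to 0.225 CPM in healthy mesenchyme sums. Cd36 (chromosome 5, 17781690 to 17888801, minus strand) stood at 425, 201, 150.1 and 504 CPM against 0.125 to 3.17 CPM. These genes were close to absent from the mesenchyme gate, and their fitted log2 differences, 10.95 ± 1.07 and 7.81 ± 1.30 (SE), rest on few reads there. Fabp4 (chromosome 3, 10204088 to 10208576, minus strand) was 4.34 higher on the log2 scale (SE 0.58, adjusted p = 1.37e-05), Thrsp (chromosome 7, 97412938 to 97417730, minus strand) 3.85 (SE 0.83, adjusted p = 0.00171) and Scarb1 (chromosome 5, 125277087 to 125341094, minus strand) 2.02 (SE 0.34, adjusted p = 0.000155). The smallest called differences were those of Fabp5 (chromosome 3, 10012548 to 10016607, plus strand), 1.59 ± 0.51 (SE), adjusted p = 0.0287, and Lpl (chromosome 8, 68880491 to 68907448, plus strand), 1.46 ± 0.28 (SE), adjusted p = 0.000581. The Fabp5 call was lost under 6 of 19 alternative analyses, with adjusted p up to 0.245. Number 2 is plate 3 alone and number 3 is plate 4 alone. Here and below, leaving out such a number or its plate is the same analysis, and totals of alternatives count both. Abca1 (chromosome 4, 53030787 to 53159895, minus strand) at 0.83 ± 0.44 (SE, adjusted p = 0.19) and Pparg (chromosome 6, 115360951 to 115490399, plus strand) at 1.09 ± 0.92 (SE, adjusted p = 0.437) did not pass. Gene positions are those of the whole gene on GRCm38 (mm10), and all tests named here are edgeR quasi-likelihood tests with Benjamini-Hochberg adjustment over all genes.

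Lpl was well expressed in both gates. In the mesenchyme gate its level ran from 185 to 516 CPM over the 12 sums, and 61.5% of healthy mesenchyme wells had a read. Scaled to 1 kilobase of annotated exon, mean levels in healthy endothelia were 149.7 CPM for Fabp4, 110.4 for Gpihbp1, 89.1 for Cd36, 59.3 for Lpl, 59.1 for Thrsp, 21.7 for Scarb1, 15.4 for Pparg, 5.06 for Abca1 and 4.91 for Fabp5. The exon length joins the exons of all annotated transcripts, which for Fabp4 cover the whole gene, so its value is a low estimate. For Gpihbp1 and Fabp5 the joined exons, 2554 and 3567 bases, cover most of the gene, so their values are likely low too. The order of these genes by level per kilobase is therefore approximate.

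**Figure D1:**
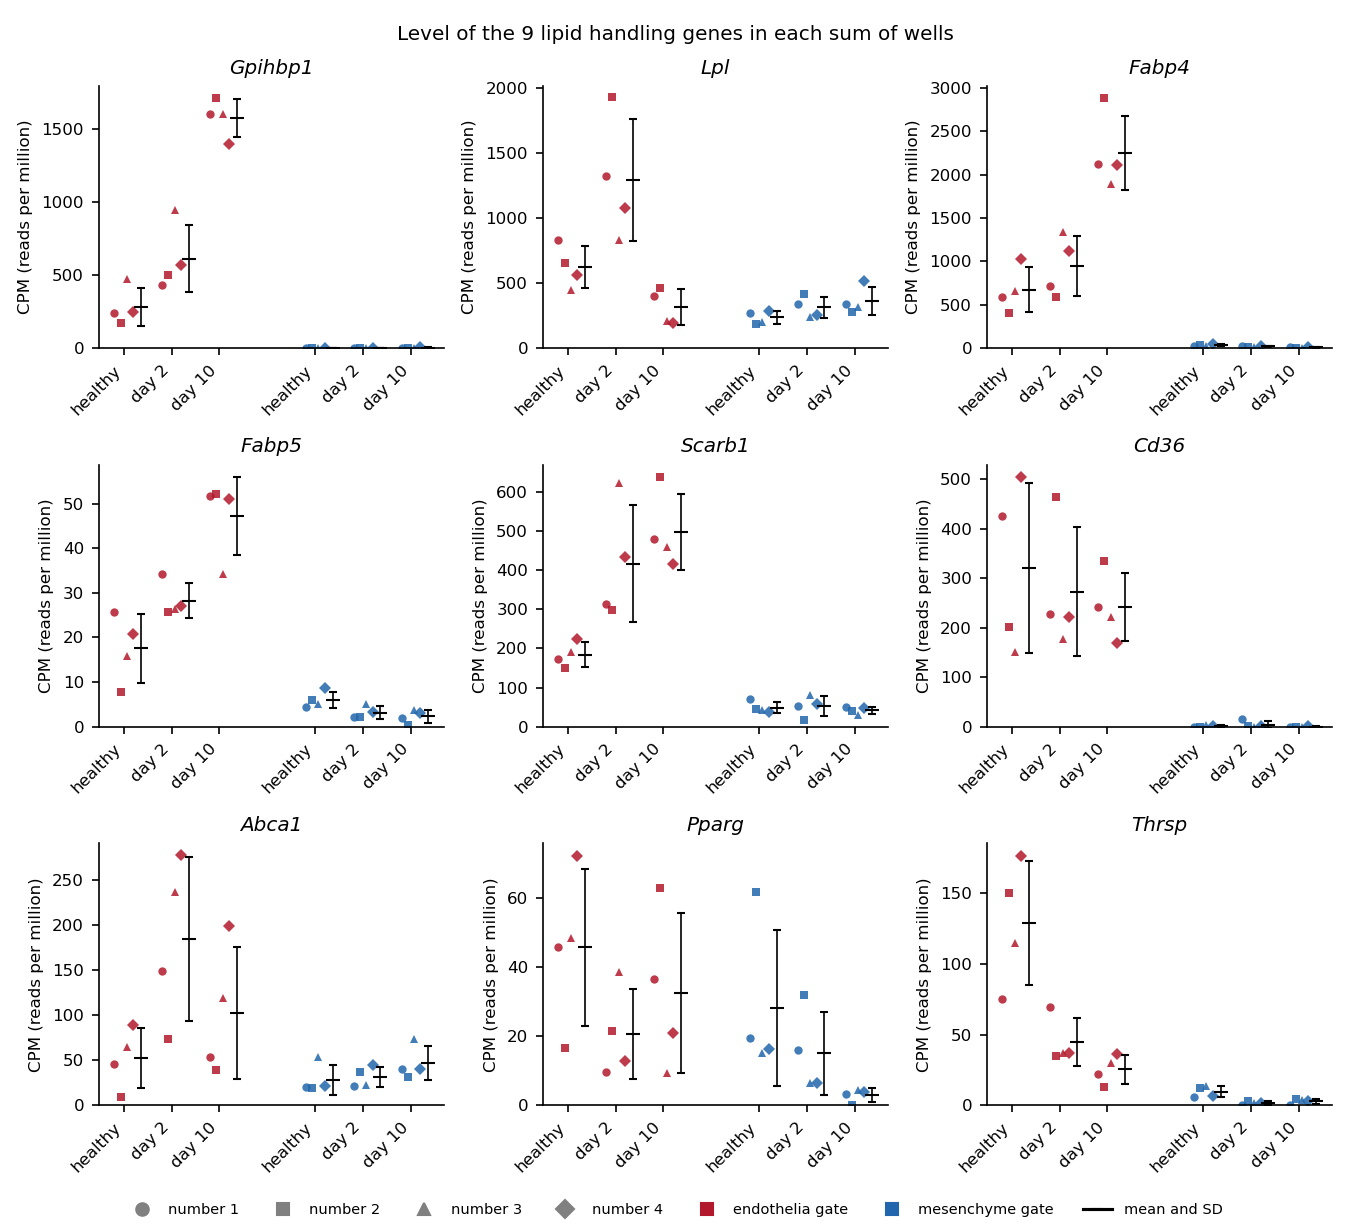
Levels of the 9 genes in CPM (vertical axes, linear, from 0) for each sum of wells, by condition and gate, with 1 marker shape per layout number and the mean and SD of 4 sums beside them. Gpihbp1, Fabp4 and Fabp5 in the endothelia gate stand higher in all 4 day 10 sums than in any healthy or day 2 sum, Lpl is highest at day 2, and Thrsp is highest in healthy sums.

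The first question was how the endothelia gate changed with obstruction. At day 2, 1 of the 9 genes was called, Abca1, against 0.15% of 14026 genes tested, while DESeq2 called 5 of the 9 and 452 genes in all. Abca1 stood at 45.9, 9.72, 65.3 and 89.0 CPM in healthy sums 1 to 4 and at 149.5, 74.1, 237 and 278 CPM in day 2 sums 1 to 4. Every number was higher at day 2, though the groups overlap because sum 2 is low in both. The log2 fold change was 2.00 ± 0.29 (SE), adjusted p = 0.0278, and the mean went from 52.5 ± 33.5 to 185 ± 91.0 CPM (SD, n = 4). The call was lost without the number as a block (1.80, adjusted p = 0.446), when any 1 number (adjusted p from 0.0537 to 0.279) or plate 2 or 6 was left out and without wells that carried macrophage or proximal tubule markers (1.92, adjusted p = 0.0624).

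At day 10, edgeR called 5 of the 9 genes in the endothelia gate, against 0.649% of genes tested. Gpihbp1, Fabp4 and Scarb1 were higher (0.321% of all genes were) and Lpl and Thrsp were lower (0.328% were). At an unadjusted p under 0.05 there were 7 of the 9, and DESeq2 called 7, adding Abca1 and Fabp5. From day 2 to day 10 edgeR called Lpl among the 9, against 0.0143% of genes. In that comparison 5 of the 9 had an unadjusted p under 0.05, and DESeq2 called 3 (Fabp4, Gpihbp1 and Lpl). Here and below, no share of all genes is given beside counts at an unadjusted p, so these cannot be read as enrichment. The totals that DESeq2 called over all genes are in the last section. The comparisons share the healthy or the day 2 sums, so they are given side by side and not as repeats of one another. A gate sum cannot tell a change in the mix of endothelial cells from a change within them, and levels within cell classes follow further on.

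**Figure D2:**
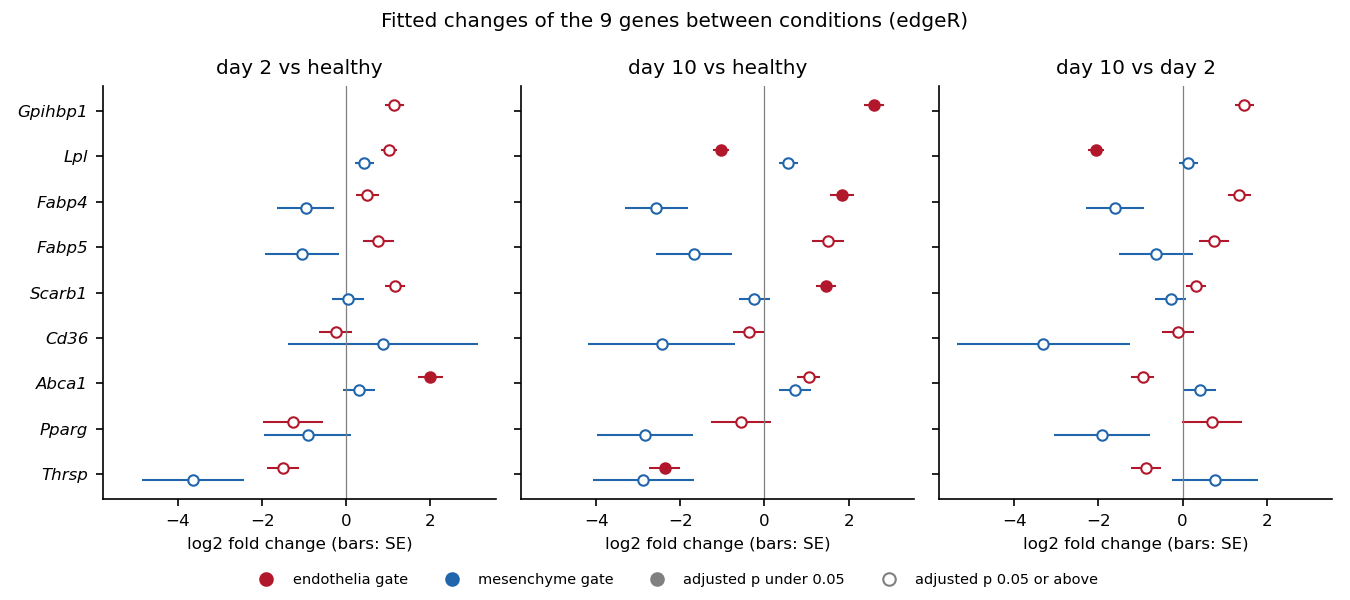
Fitted log2 fold changes of the 9 genes (horizontal axis, bars are SE) for 3 comparisons in the endothelia gate (red) and mesenchyme gate (blue), with filled circles for adjusted p under 0.05. Filled circles appear only in the endothelia gate: Abca1 at day 2, Gpihbp1, Lpl, Fabp4, Scarb1 and Thrsp at day 10, and Lpl between the days. Gpihbp1 was not tested in the mesenchyme gate.

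Gpihbp1, the carrier that holds lipase at the vessel wall, had the largest called change of the 9 in this gate. Its level was 236, 174, 472 and 246 CPM in healthy sums 1 to 4, 433, 497, 944 and 567 CPM at day 2 and 1599, 1708, 1602 and 1395 CPM at day 10. The day 10 sums lie apart from all others, and the day 2 sums overlap the healthy ones only through healthy sum 3. Gpihbp1 rose 5.59-fold in mean CPM by day 10, a log2 fold change of 2.60 ± 0.23 (SE), adjusted p = 0.00139, and this call held in all 19 alternative analyses run. At day 2 the value was 1.14 ± 0.22 (SE), adjusted p = 0.106, and between the days it was 1.46 ± 0.22 (SE), adjusted p = 0.103, so neither step passed alone. The share of wells with a read was 50.5% of healthy, 67.1% of day 2 and 86.4% of day 10 wells. With every well thinned to 100000 reads the shares were 48.9%, 61.1% and 80.0%, leaving out 16, 11 and 6 shallower wells. The mesenchyme gate had a read in 6.04 to 8.51% of wells (1.43 to 4.42% when thinned), at median depths of 312617 to 377554 reads against 353766 to 447221 in endothelia, which is the background for this gene. Median depth and genes per well were highest at day 10 in the endothelia gate (3291 genes, against 2832 in healthy wells).

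Lpl, the lipase itself, did not follow its carrier. Healthy sums 1 to 4 had 827, 653, 442 and 563 CPM, day 2 sums 1318, 1925, 833 and 1076 CPM and day 10 sums 401, 463, 209.7 and 191 CPM. All day 2 sums lie above all healthy sums and all day 10 sums below all day 2 sums, while day 10 sum 2 lies above healthy sum 3. Lpl fell by day 10 against healthy (-1.04 ± 0.19 SE, adjusted p = 0.0395) and against day 2 (-2.06 ± 0.20 SE, adjusted p = 0.00725), when its mean was 0.246 times the day 2 mean. The day 2 value against healthy, 1.02 ± 0.19 (SE), adjusted p = 0.0823, did not pass the threshold. The fall against healthy was lost without the block (-0.95, adjusted p = 0.353), when number 1, 3 or 4 (adjusted p up to 0.301) or plate 2, 5 or 6 was left out, and without wells bearing macrophage or tubule markers (-1.05, adjusted p = 0.0752). The fall between the days was lost without the block (-2.04, adjusted p = 0.118) and when number 1, 3 or 4 was left out (adjusted p up to 0.197), and its size moved only between -2.18 and -1.94 over the alternatives.

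Fabp4, the binding protein of adipocytes and capillary endothelium, was 591, 408, 659.8 and 1029 CPM in healthy sums 1 to 4, 721, 591, 1344 and 1121 CPM at day 2 and 2119, 2881, 1893 and 2111 CPM at day 10. The healthy and day 2 sums overlap widely, and each day 10 sum lies above them all. It rose 3.35-fold in mean CPM by day 10, with a log2 fold change of 1.85 ± 0.29 (SE), adjusted p = 0.0236, while day 2 stood at 0.50 ± 0.27 (SE), adjusted p = 0.709. Fabp5, its relative, was 25.8, 7.71, 15.7 and 20.9 CPM in healthy sums, 34.1, 25.6, 26.3 and 27 at day 2 and 51.6, 52.1, 34.2 and 51.0 at day 10. Its day 10 sums, like those of Fabp4, lie above all others, the lowest of them by a narrow margin, but the day 10 value of 1.51 ± 0.37 (SE), adjusted p = 0.128 did not pass. The Fabp4 call was lost without number 1, 3 or 4 (adjusted p from 0.0847 to 0.131) and without the marker-bearing wells (1.77, adjusted p = 0.065).

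Scarb1, the high-density lipoprotein receptor, was 172, 149.9, 189.7 and 224 CPM in healthy sums 1 to 4, 313, 298, 622 and 434 CPM at day 2 and 480.0, 638, 458 and 414 CPM at day 10. Both obstructed groups lie wholly above the healthy sums and overlap each other. It rose by day 10 with a log2 fold change of 1.47 ± 0.24 (SE), adjusted p = 0.0257, and day 2 stood at 1.15 ± 0.24 (SE), adjusted p = 0.117. The day 10 call was lost when any 1 number was left out (adjusted p from 0.0562 to 0.164) and without the marker-bearing wells (1.42, adjusted p = 0.0574). Abca1, which works in the opposite direction by exporting cholesterol, was 53.5, 39.1, 119.7 and 199.6 CPM at day 10, lower than at day 2 in every number, and its day 10 value against healthy was 1.05 ± 0.28 (SE), adjusted p = 0.158.

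Cd36, a fatty acid and oxidised lipoprotein receptor, showed no difference that could be separated from the spread between numbers. Its sums ran over 150.1 to 504 CPM in healthy, 176 to 465 at day 2 and 168 to 334 at day 10, with 2 numbers higher and 2 lower in each comparison. The log2 fold changes were -0.25 ± 0.39 (SE), adjusted p = 0.948 at day 2 and -0.37 ± 0.39 (SE), adjusted p = 0.83 at day 10. Pparg, the nuclear receptor that drives Fabp4 and Cd36 in fat cells, was low and uneven at 16.6 to 72.0, 9.52 to 38.5 and 9.23 to 62.8 CPM. A single well gave up to 79.8% of the Pparg reads of a sum, and its values, -1.26 ± 0.71 (SE), adjusted p = 0.721 at day 2 and -0.56 ± 0.72 (SE), adjusted p = 0.865 at day 10, did not pass.

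Thrsp, linked to lipid synthesis in liver and fat, moved the other way from Gpihbp1. It was 75.6, 150.4, 115 and 176 CPM in healthy sums 1 to 4, 69.8, 34.7, 37.1 and 37.4 CPM at day 2 and 21.9, 13.3, 30.1 and 36.4 CPM at day 10. All healthy sums lie above all sums of either obstructed group, day 2 sum 1 by the narrowest margin. Thrsp fell by day 10 (-2.37 ± 0.38 SE, adjusted p = 0.024), and its share of wells with a read went from 29.5% to 14.7% and 13.1%. At day 2 the value was -1.50 ± 0.37 (SE), adjusted p = 0.194. Leaving out any 1 number, or plate 2 or 5, ended the day 10 call, with adjusted p from 0.0511 to 0.188.

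Transcripts of other cells moved with condition in the endothelia gate. Proximal tubule markers summed to 45.2 to 2511 CPM over 10 genes in healthy sums, 521 to 720.4 at day 2 and 60.9 to 95.6 at day 10. Macrophage markers summed to 60.4 to 70.1 CPM over 12 genes in healthy sums, 46.7 to 138 at day 2 and 138 to 285 at day 10, where Cd14, Lyz2, Cd68 and Csf1r gave most of it and Ptprc, the pan-leukocyte gene, stayed at 0 to 3.93 CPM. Without the 88 healthy, 36 day 2 and 21 day 10 wells that held at least 10 reads of each of 2 or more such markers, the day 10 log2 fold changes were 2.62 (adjusted p = 0.00207) for Gpihbp1 and -2.19 (adjusted p = 0.0492) for Thrsp, both still called. For Abca1 at day 2 and for Fabp4, Scarb1 and Lpl at day 10 the direction stayed and the call was lost, with the values given above. The wells left out differed in kind between conditions. Tubule markers flagged 79 healthy, 30 day 2 and 2 day 10 wells, and macrophage markers 10, 8 and 19. Kap and Gpx3 were not used to flag tubule wells. Mesangial markers summed to 62.9 to 247 CPM over 7 genes in healthy sums, 423 to 756 at day 2 and 160.3 to 412 at day 10. Serpine2 gave most of that sum (43.9 to 235 CPM in healthy, 412 to 722 at day 2 and 158 to 282 at day 10). Wells with mesangial markers were not left out, and their part in the day 2 values of Abca1 and Lpl was not tested.

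**Figure D3:**
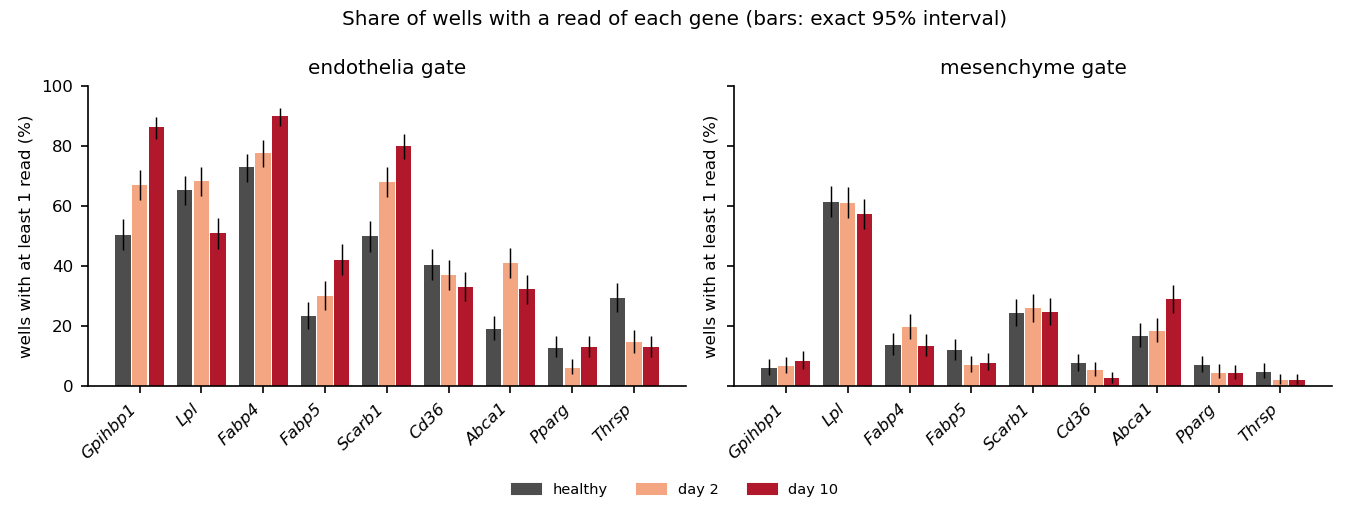
Share of wells with at least 1 read of each gene (vertical axis, percent, from 0) by condition in the endothelia and mesenchyme gates, with exact 95% binomial intervals that cover counting error only. The share with Gpihbp1 climbs from 50.5% to 86.4% in the endothelia gate and stays at or below 8.51% in the mesenchyme gate, where Lpl is the most widely found of the 9.

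In the mesenchyme gate none of the 8 members tested was called by edgeR in any comparison, where 0.459% of 14582 genes were called at day 2, 1.32% at day 10 and 0.048% between the days, and Gpihbp1 was too low to test. Lpl had 269.8, 185, 203 and 282 CPM in healthy sums, 338, 414, 236 and 256 at day 2 and 335, 273, 312 and 516 at day 10, a day 10 log2 fold change of 0.56 ± 0.22 (SE), adjusted p = 0.283. Scarb1 ran over 18.0 to 80.9 CPM and Abca1 over 19.4 to 74.2 CPM across the 12 mesenchyme sums. Fabp4 stood at 20.0, 38.8, 26.8 and 49.1 CPM in healthy and 10.7, 0.530, 4.75 and 16.3 CPM in day 10 sums, and its value of -2.57 ± 0.74 (SE), adjusted p = 0.131 did not pass. Pparg ran over 15.2 to 61.7 CPM in healthy and 0 to 4.49 CPM in day 10 sums (-2.83 ± 1.15 SE, adjusted p = 0.298). At an unadjusted p under 0.05 there were 1, 4 and 1 members in the 3 comparisons, and DESeq2 called 1 (Thrsp), 3 (Fabp4, Pparg and Thrsp) and 0, all lower after obstruction.

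Whether the 2 gates responded differently was tested as an interaction. In this fit, which also gave the healthy gate comparison, the number was the block. The pairing of the 2 gates within a condition and number was not modelled. By edgeR, Fabp4 alone passed among the 9, for day 10 against healthy, where 0.254% of 16116 genes did. Its value was 4.25 ± 0.77 (SE), adjusted p = 0.0239, as endothelia change minus mesenchyme change. Its call was lost without number 1, 3 or 4 or plate 2 (adjusted p from 0.117 to 0.241). Few mesenchyme wells held Fabp4, with at least 5 reads in 23 of 364 healthy and 10 of 376 day 10 wells. In the same comparison 4 members had an unadjusted p under 0.05, and DESeq2 called 4 (Fabp4, Fabp5, Lpl and Scarb1). For Lpl the differences were -1.56 ± 0.39 (SE), adjusted p = 0.116 at day 10 against healthy and -2.26 ± 0.39 (SE), adjusted p = 0.0718 for day 10 against day 2, and for Fabp5 3.12 ± 0.73 (SE), adjusted p = 0.0925 at day 10. None of the 9 passed at day 2 (0.0683% of genes did) or between the days (0% did). At an unadjusted p under 0.05 these were 3 and 4 members, and DESeq2 called 0 and 2, the latter Lpl and Fabp4. For Gpihbp1 the difference rests on a few reads in mesenchyme sums and has an SE of 1.01.

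The endothelia gate holds several kinds of vessel. Wells were clustered without the 9 genes, and clusters were called by fixed markers as glomerular-like (3 clusters), peritubular capillary-like (1 cluster) and arterial-like (3 clusters, of which 1 is led by Slc14a1 and Aqp1). The glomerular-like class kept 184 healthy, 188 day 2 and 204 day 10 wells. Most of its healthy wells (150) were in one cluster, most day 2 wells (133) in another and most day 10 wells (121) in the remaining one, so a change within the class is also a change between these clusters. The capillary-like class held 64, 79 and 23 wells, with 1 well of healthy number 2 and none of day 2 number 2. Its cluster was led by Mmrn1, a gene of the lymphatic marker list, and also had Plvap among its leading genes. It met 5 of 8 peritubular capillary markers and 1 of 6 lymphatic ones, and no list of venous markers was used. Levels below are descriptions of these clusters, except where a test is given.

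Among the 3 vessel classes Lpl was found mainly in the glomerular-like one. Their sums 1 to 4 had 1051, 1177, 1060.4 and 1292 CPM in healthy mice, 2004, 2246, 2315 and 2523 at day 2 and 575, 577, 392 and 330.4 at day 10. The 3 groups do not overlap. In pooled capillary-like wells Lpl was 25.3 CPM in healthy, 2.47 at day 2 and 3.27 at day 10, and in arterial-like wells it was 14.8, 8.21 and 12.7 CPM. A read of Lpl was found in 87.0% of healthy glomerular-like and 43.8% of healthy capillary-like wells. Within the glomerular-like class Lpl fell by day 10 against healthy (-1.30 ± 0.19 SE, adjusted p = 0.0166) and against day 2 (-2.32 ± 0.20 SE, adjusted p = 0.00146). The fall against day 2 held in all 16 alternatives run, and that against healthy was lost when any 1 number or plate 2 was left out (adjusted p from 0.0511 to 0.189). The day 2 value was 1.02 ± 0.19 (SE), adjusted p = 0.0905.

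Gpihbp1 in glomerular-like sums was 239, 302, 530.4 and 254 CPM in healthy, 435, 569, 632 and 426 at day 2 and 1311, 1668, 1751 and 1537 at day 10. It rose at day 10 against healthy (2.30 ± 0.17 SE, adjusted p = 0.000374) and against day 2 (1.59 ± 0.17 SE, adjusted p = 0.007), while day 2 against healthy stood at 0.71 ± 0.17 (SE), adjusted p = 0.19. In this class Lpl was highest at day 2 and Gpihbp1 at day 10 in every number. Without number 1 or 4 the rise between the days was not called (adjusted p = 0.0776 and 0.187), and the rise against healthy held in all 16 alternatives. Fabp4 went from 286, 380.4, 62.3 and 257 CPM in healthy to 259.5, 595, 520.1 and 281 at day 2 and 1349, 2897, 2303 and 2064 at day 10 (3.15 ± 0.45 SE, adjusted p = 0.0142, day 10 against healthy). Scarb1 also rose at day 10 in these wells (1.39 ± 0.23 SE, adjusted p = 0.0294), from 182, 189.9, 257 and 127 to 545, 534, 416 and 422 CPM. Leaving out 1 number ended the Fabp4 call (number 1, 2 or 4, adjusted p up to 0.189) and the Scarb1 call (number 1, 2 or 4, or plate 5 or 6, up to 0.297).

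At day 10, edgeR called 4 of the 9 genes in glomerular-like wells, 3 higher and 1 lower, against 0.461% of 11941 genes, 0.209% higher and 0.251% lower. There 6 members had an unadjusted p under 0.05, and DESeq2 called 6, adding Fabp5 and Thrsp. None was called at day 2, where edgeR called 0.184% of all genes. At day 2, 4 members had an unadjusted p under 0.05, and DESeq2 called Gpihbp1, Lpl and Scarb1. Between the days edgeR called Gpihbp1 and Lpl, against 0.126%. For that comparison 3 members had an unadjusted p under 0.05, and DESeq2 called 3, adding Fabp4. The comparison of the days within this class was added after the data had been seen. In these sums macrophage markers summed to 52.1 to 95.1 CPM in healthy and 93.1 to 222 CPM at day 10. Proximal tubule markers summed to 74.8 to 1315 CPM in healthy and 52.2 to 132 CPM at day 10, and their part in these changes was not tested within the class.

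Abca1 stood low in glomerular-like wells. Pooled glomerular-like wells held 20.4, 39.8 and 25.7 CPM in healthy, day 2 and day 10. Capillary-like sums 1, 3 and 4 went from 27, 24.8 and 117 CPM in healthy to 514, 388 and 411 CPM at day 2, and the 1 day 10 sum with at least 10 wells stood at 997 CPM. The share of capillary-like wells with an Abca1 read was 18.8%, 65.8% and 91.3%. Abca1 rose at day 2 in this class (3.32 ± 0.54 SE, adjusted p = 0.0426, 3 numbers a group), the 1 member edgeR called there, against 0.0883% of 13587 genes. In that comparison 5 members had an unadjusted p under 0.05, and DESeq2 called 4 (Abca1, Cd36, Gpihbp1 and Scarb1). The edgeR call of Abca1 was lost without the block (2.90, adjusted p = 0.162), in sums per plate (2.47, adjusted p = 0.209) and without number 1, 3 or 4 or plate 1, 2 or 5 (adjusted p up to 1). Pooled arterial-like wells had 123 CPM in healthy, 389 at day 2 and 191 at day 10, not tested.

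Of the 3 classes and conditions, pooled levels of Cd36 and Thrsp were highest in healthy capillary-like wells. For Cd36 the capillary-like sums 1, 3 and 4 had 1550.1, 331 and 1203 CPM in healthy and 327, 293 and 287 CPM at day 2 (-1.57 ± 0.41 SE, adjusted p = 0.542), so the healthy values spread widely and sum 3 lies next to the day 2 values. Glomerular-like Cd36 stayed between 298 and 352 CPM in the 3 conditions when wells were pooled. Thrsp in capillary-like sums was 237, 272 and 385 CPM in healthy and 151, 91.8 and 93.7 CPM at day 2 (-1.48 ± 0.52 SE, adjusted p = 1), apart in these 3 numbers but not past the threshold. In pooled arterial-like wells Thrsp was 97.6, 2.22 and 3.70 CPM. Gpihbp1 in capillary-like wells was 489, 1066 and 348 CPM in healthy and 859, 2014 and 1656 at day 2 (1.27 ± 0.31 SE, adjusted p = 0.393), and Fabp4 there was already 2796, 1734 and 2499 CPM in healthy.

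**Figure D4:**
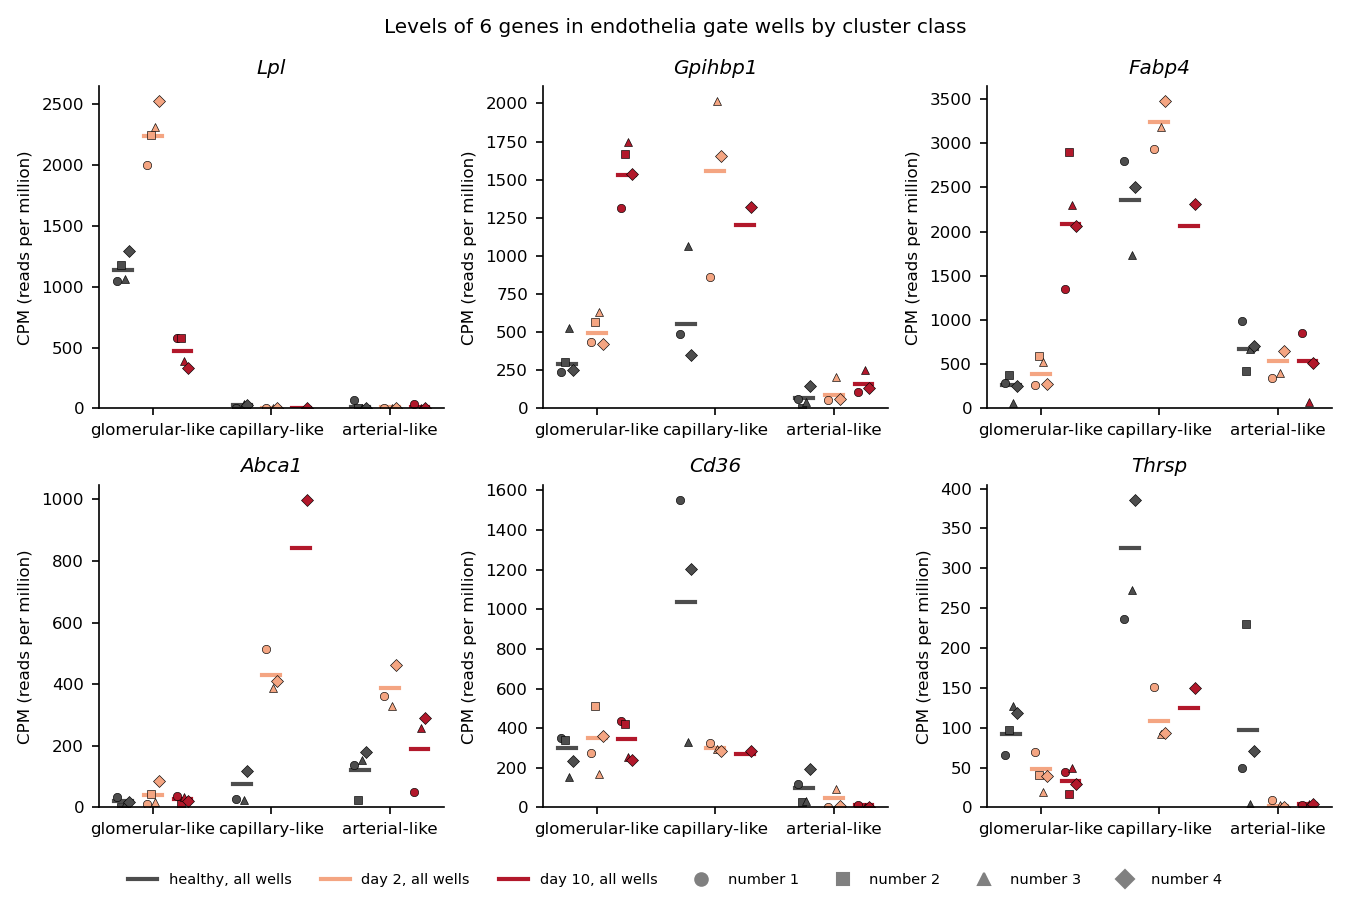
Levels of 6 genes in CPM (vertical axes, linear, from 0) in endothelia gate wells of 3 cluster classes, with a line for all wells of a condition pooled and a marker for each number with at least 10 wells. Lpl is high only in the glomerular-like class of the 3 shown and is highest at day 2, Abca1 in the capillary-like class is high at day 2 and day 10, and Fabp4 in glomerular-like wells reaches the capillary-like level only at day 10.

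A cluster mostly of endothelia wells that no marker list named, led by Top2a, Mki67 and Apln, held 60 day 10, 6 day 2 and 1 healthy endothelia wells. Its Gpihbp1 level over all wells was 3254 CPM and its Fabp4 level 4617 CPM, the highest of the 19 clusters for both genes, and its Lpl level was 103 CPM. Fabp5 was also highest there, at 116 CPM. This grouping depends on the clustering resolution, which was 1 here. At resolution 0.5, Apln, Prc1 and Ckap2 were among the leading genes of a cluster of 227 wells called glomerular endothelial. At resolution 2, a cluster of 60 wells was led by Apln and another, of 19 wells, by Top2a and Mki67. Pparg was highest in the cluster led by Slc14a1 and Aqp1, at 157 CPM, where Scarb1 stood at 522 CPM. Outside the endothelium Lpl was 728 CPM in the fibroblast-like cluster and 488 CPM in the cluster led by Ren1.

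Genes with the most similar profile to each member were sought over the 12 endothelia sums, among 7863 genes of at least 16 CPM on average. Nearest to Gpihbp1 were Cdc42ep3 (r = 0.95), Apbb2 (r = 0.95) and Rhoc (r = 0.94). Fabp4 came closest to Cdh5 (r = 0.93), Apln (r = 0.91) and Cdc42ep3 (r = 0.91), and Fabp5 to Tnfaip1 (r = 0.95), Smad1 (r = 0.91) and Ripk1 (r = 0.91). For Scarb1 these were Fscn1 (r = 0.94), Col4a1 (r = 0.93) and Col4a2 (r = 0.92). Col4a1 and Col4a2 each encode a chain of basement membrane collagen. Lpl lay nearest to Pcdh18 (r = 0.87), Vwa5a (r = 0.85) and Lect1 (r = 0.84), Abca1 to Vwa1 (r = 0.95), Mink1 (r = 0.91) and Ppfibp1 (r = 0.89), and Thrsp to Ccrl2 (r = 0.88), Ly6c1 (r = 0.88) and St6galnac3 (r = 0.87). Cd36 (Upf1 (r = 0.82), Rab6a (r = 0.82) and Mob1a (r = 0.80)) and Pparg (Ing3 (r = 0.83), Klhdc8a (r = 0.83) and Btnl9 (r = 0.82)) had looser neighbours. Among the members, Gpihbp1 ran with Fabp4 (r = 0.90) and Scarb1 (r = 0.88) and against Thrsp (r = -0.87), and with Lpl r was -0.53. These are Pearson values on log2(CPM + 1) over sums that share conditions and plates, and they are descriptions only.

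Of 158 genes in 8 lists of wider lipid pathways, 142 were tested in the endothelia gate. By edgeR, none was called at day 2 (0.15% of all genes were), none between the days (0.0143%) and 1, which was lower, at day 10 (0.649%). That gene was Slc27a2, a fatty acid transporter of the proximal tubule, at 0.0428 to 77.4 CPM in healthy and 0 to 0.0974 CPM in day 10 sums (-8.62 ± 1.36 SE, adjusted p = 0.0236). The fitted value rests on few reads at day 10. Tubule markers had the values given above, and their part in this fall was not tested. At an unadjusted p under 0.05 there were 19 genes at day 2, 25 at day 10 and 15 between the days, and DESeq2 called 7, 11 and 4. The 11 at day 10 were Elovl5, Fabp3, Hadh, Hilpda, Hmgcs1, Lrp2, Me1, Mgll, Mlxipl, Ppard and Slc27a2. No share of all genes at that unadjusted p is given, and DESeq2's totals over all genes are in the last section, so these counts are descriptions only. At day 10 and day 2, lipase processing genes gave no edgeR call among 12 tested, with Pcsk5, a protease that can cleave lipase, at -0.89 ± 0.37 (SE), adjusted p = 0.396 at day 10. Lipoprotein receptors gave none among 16, led at day 2 by Stab1, a scavenger receptor (0.63 ± 0.14 SE, adjusted p = 0.143). Among 17 cholesterol efflux and LXR target genes none was called, including Abcg1, the partner exporter of Abca1, at 0.67 ± 0.24 (SE), adjusted p = 0.457 on day 2. Sterol synthesis gave none of 23, with Hmgcs1, an early enzyme of the pathway, at -0.99 ± 0.23 (SE), adjusted p = 0.176 on day 2. Lipogenic and PPAR genes gave none of 22, fatty acid oxidation genes none of 20 and lipid droplet genes none of 15, where Hilpda, an inhibitor of droplet lipolysis, came nearest at day 10 (1.20 ± 0.24 SE, adjusted p = 0.0598). List medians on the log2 scale at day 10 lay between -0.53 (lipogenic and PPAR genes) and 0.07 (lipase processing genes and lipoprotein receptors), beside -0.02 for all genes tested.

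In glomerular-like wells 127 list genes were tested, and edgeR called 1 higher and 1 lower at day 10 (0.461% of all genes were called). Between the days it called 1, which was higher (0.126%). At an unadjusted p under 0.05 there were 17 list genes at day 2, 17 at day 10 and 6 between the days, and DESeq2 called 3, 12 and 2. Apoe, a ligand of lipoprotein receptors and an acceptor of cholesterol, was 34.1, 35.5, 33.2 and 56.6 CPM in healthy sums 1 to 4, 56.5, 38.4, 97.0 and 117 at day 2 and 176, 157, 270.4 and 355 at day 10. It rose against healthy (2.52 ± 0.25 SE, adjusted p = 0.00208) and against day 2 (1.64 ± 0.24 SE, adjusted p = 0.0315). Macrophages also express Apoe, their markers had the values given above, and their part in its rise was not tested. Elovl5, which lengthens polyunsaturated fatty acids, fell from 625, 725, 416 and 530.1 CPM in healthy to 344, 207, 259.7 and 313 CPM at day 10 (-1.02 ± 0.19 SE, adjusted p = 0.0485). List genes took part in the clustering. In capillary-like wells edgeR called none of 135 list genes at day 2, where 4 had an unadjusted p under 0.05 and DESeq2 called 7.

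In the mesenchyme gate 151 list genes were tested, and edgeR called 3 as lower at day 10, near the 1.32% of all genes called there. At an unadjusted p under 0.05 there were 25 list genes at day 2, 34 at day 10 and 20 between the days. DESeq2 called 9, 18 and 10. Cav1, the caveolar coat protein that also takes part in fatty acid uptake, went from 749 ± 167 to 359.7 ± 121 CPM (SD, n = 4; -1.12 ± 0.12 (SE), adjusted p = 0.00236). Ptrf (cavin 1), which works with it, went from 1881 ± 139 to 1219 ± 201 CPM (-0.67 ± 0.11 SE, adjusted p = 0.0184), and Srebf2, the regulator of sterol synthesis, from 280.4 ± 55.3 to 165 ± 28.0 CPM (-0.80 ± 0.13 SE, adjusted p = 0.0141). In the same gate vascular smooth muscle markers summed to 32727 to 36289.7 CPM over 8 genes in healthy and 18264 to 26652 at day 10. Fibroblast markers, also 8 genes, summed to 282 to 2153 CPM in healthy and 909 to 5016 at day 10. Injured tubule markers, 8 genes, summed to 4.66 to 8.67 CPM in healthy and 171 to 804 at day 10. The part of these markers in the 3 falls was not tested, and a change in the mix of mesenchymal cells cannot be told apart from one within them. By edgeR, Cav1 was the single list gene whose day 10 change differed between the gates (1.13 ± 0.23 SE, adjusted p = 0.0442), where 0.254% of all genes did. DESeq2 called 8 list genes there, Cav1 among them. In endothelia Cav1 was 592 ± 120.2 CPM in healthy and 575 ± 63.6 CPM at day 10. Angptl4, a secreted inhibitor of lipase, belonged to the mesenchyme gate in healthy mice (-3.99 ± 1.11 SE, adjusted p = 0.012, endothelia against mesenchyme), with 90.2 to 203 CPM there against 0.128 to 26.7 CPM in endothelia. Between the healthy gates 59 of 154 list genes were called, 28 higher in endothelia and 31 higher in mesenchyme, where 23.9% of all genes were called and 12.7% were higher in endothelia.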

How the data were processed

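Reads were aligned to mm10 with STAR, per the submitters' processing notes; the counting tool and annotation are not given in the sources used here. The deposited files hold whole-number read counts per gene and well, with no normalization, and layout tables of gate, condition and number. Entries of 1 symbol were added (24490 entries to 23998 symbols). Spike-in counts, in files of their own, were not used in the tests. The 12 control wells (median 3264 reads) were left out, as were wells under 1000 genes or 20000 reads.

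Counts were summed by gate, condition and number and tested with edgeR 4.0.16 (quasi-likelihood, TMM, filterByExpr, number as block, Benjamini-Hochberg over all genes tested, threshold 0.05) in R 4.3.3. DESeq2 1.42.0 was an alternative. Same-numbered sums share plates, and their deviations from group means correlated at 0.01 to 0.17 over genes. Nothing in the labels says that a number is a mouse, so p-values may cover technical spread only. Wells were clustered with scanpy 1.11.5 (Leiden, resolution 1, 2000 variable genes, 30 components, 15 neighbours) without the 9 genes; a cluster was named from at least 3 fixed markers. Class levels and tests use resolution 1 alone, and no tests were run on classes at resolutions 0.5 and 2. No doublet caller was run. Other alternatives were scaling, the low-count filter, no block, sums per plate, left-out numbers and plates, and well filters. The scripts were tested on simulated data.

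Named genes are the 9 members, up to 4 genes per list and comparison by smallest p, 3 profile neighbours per member and marker genes. The genes, lists and tests were chosen with earlier results of these data known. Intervals on shares of wells cover counting error only, since reads without molecular identifiers are not independent molecules.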

Additional observations from a re-analysis of the deposited data

Results flagged for a closer look

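Single sums that stood apart from the other 3 of their group (Dixon's test at its 95% critical value) were looked for in 51 groups with at least 100 reads, and 7 were found; chance flags about 1 in 20 groups. In the endothelia gate, Fabp5 was 34.1 CPM in day 2 sum 1 (next 27), and it was lowest at day 10 in sum 3, with 34.2 CPM (next 51.0). Thrsp in day 2 sum 1 was 69.8 CPM (next 37.4), the obstructed sum nearest to the healthy ones. In the mesenchyme gate, Gpihbp1 in day 10 sum 4 was 6.29 CPM (next 0.516) and Cd36 in day 2 sum 1 was 15 CPM (next 0.774), both far below their endothelial levels. Abca1 in healthy mesenchyme sum 3 was 53.6 CPM (next 21.6), and Pparg in healthy mesenchyme sum 2 was 61.7 CPM (next 19.5).

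The change of Fabp4 at day 10 differed between the gates by a log2 value of 4.25 with an SE of 0.77 (interaction test in edgeR, adjusted p = 0.0239). In all 4 numbers Fabp4 was higher at day 10 than in the healthy sum of the endothelia gate, and lower in the mesenchyme gate. Within the mesenchyme gate alone edgeR did not call that fall (-2.57 ± 0.74 SE, adjusted p = 0.131), and it rests on few wells with reads.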

How the results depend on the processing

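Counts of genes called are given in the order day 2 against healthy, day 10 against healthy and day 10 against day 2. Called by edgeR were 21, 91 and 2 genes in the endothelia gate, 67, 193 and 7 in the mesenchyme gate, 11, 41 and 0 for the difference between gates, 22, 55 and 15 in glomerular-like wells and 12 at day 2 in capillary-like wells. DESeq2 called 452, 751 and 289 (endothelia), 571, 1155 and 377 (mesenchyme), 353, 593 and 329 (difference), 347, 475 and 259 (glomerular-like) and 587 (capillary-like). Without a low-count filter the counts that moved by over 1.5 times were 65, 167 and 19 (endothelia), 31 (mesenchyme, between days), 25 (difference, day 10), 53, 87 and 31 (glomerular-like) and 26. Sums per plate with plate as block gave, in the same order of groups, 122, 307 and 49, then 162, 509 and 65, then 38, 163 and 32, then 83, 156 and 46, and last 6. Without wells of other cells' markers the endothelia gate gave 36 at day 10 and 1 between the days, and the difference 5 and 13. Wells of their gate's own class gave 12 (mesenchyme) and 6 (difference) between the days, and library-size scaling gave 4 for the latter. Leaving out 1 number or plate gave 0 to 20, 6 to 72 and 0 to 6 (endothelia), 16 to 55, 28 to 205 and 0 to 8 (mesenchyme), 0 to 9, 1 to 42 and 0 to 6 (difference), 0 to 22, 3 to 46 and 2 to 13 (glomerular-like) and 0 to 12 (capillary-like). The cause of these moves was not tested, though sums left out mean fewer samples.

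With no replicate block the counts were 12, 50 and 0 in endothelia, 42, 125 and 4 in mesenchyme, 7, 26 and 1 for the difference and 7 in capillary-like wells. The unblocked fit ended the day 2 calls of Abca1 in the endothelia gate and in capillary-like wells and the day 10 calls of Lpl in the endothelia gate, kept those of Lpl at day 10 in glomerular-like wells and between the healthy gates, and gained Lpl at day 2 in glomerular-like wells (adjusted p = 0.0498). It moved Pparg at day 10 in glomerular-like wells to 0.062.

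No called member changed sign. Uncalled values that did were, on the log2 scale, Cd36 between the days in endothelia (0.034 without marker wells), Scarb1 at day 2 in mesenchyme (-0.016 in class wells, -0.10 without marker wells) and Cd36 there (-0.12 per plate). The gate difference of Gpihbp1 became 0.22 (DESeq2), 0.017 (its size factors) and 1.06 (no marker wells) at day 2, 0.0084 (DESeq2), 1.04 (class wells) and 0.95 (no marker wells) at day 10, and 1.11 (class wells) between the days. That of Thrsp at day 10 became 0.14 and Cd36 between the days in glomerular-like wells -0.089, both per plate. With 1 number or plate left out, ranges spanning 0 were -0.74 to 0.16 for Cd36 in endothelia at day 2, -0.69 to 0.096 for Cd36 in endothelia at day 10, -0.32 to 0.11 for Cd36 in endothelia between the days, -0.33 to 0.41 for Scarb1 in mesenchyme at day 2, -1.46 to 2.89 for Cd36 in mesenchyme at day 2, -0.12 to 0.43 for Lpl in mesenchyme between the days, -0.65 to 0.17 for Scarb1 in mesenchyme between the days, -0.65 to 1.10 for Gpihbp1 in the gate difference at day 2, -2.95 to 2.01 for Cd36 in the gate difference at day 2, -0.93 to 0.050 for Pparg in the gate difference at day 2, -1.12 to 1.76 for Gpihbp1 in the gate difference at day 10, -0.81 to 0.35 for Thrsp in the gate difference at day 10, -0.51 to 0.66 for Gpihbp1 in the gate difference between the days, -0.20 to 1.03 for Cd36 in glomerular-like wells at day 2, -0.86 to 0.23 for Pparg in glomerular-like wells at day 10, -0.47 to 0.42 for Cd36 in glomerular-like wells between the days, -0.78 to 0.28 for Thrsp in glomerular-like wells between the days and -0.18 to 1.79 for Pparg in capillary-like wells at day 2. Capillary-like wells at day 10 were not tested, since 1 number alone had at least 10 wells. Low counts of Pparg, Fabp5 and mesenchymal Gpihbp1 and Cd36 limit what could be seen. The few wells with reads of mesenchymal Fabp4 limit it as well.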
